A study of Mus musculus with 6 samples.

Results

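The transforming growth factor beta (TGF-beta) pathway was followed through 10 of its genes in 3 related mouse hepatocellular carcinoma lines: the ligands Tgfb1, Tgfb2 and Tgfb3, the receptors Tgfbr1, Tgfbr2 and Tgfbr3, the signal transducer Smad3, the inhibitory Smads Smad6 and Smad7, and the induced matrix gene Tgfbi. The genes were chosen by name from the platform annotation, and every probe set that names 1 of them alone was used. All 10 were found, on 25 of the 34945 probe sets that name 1 gene, and they are 10 of the 18193 genes measured. The parent line is BL185. M1 and I1 are migratory subpopulations selected from it, and the study asked what set each apart from the parent. All 3 lines were grown in the same serum-containing medium without a further treatment being named, and each was measured on 2 Affymetrix arrays, replicates 1 and 2, 6 arrays in all. The sample titles call M1 and I1 subclone lines. The labels do not say whether each came from 1 cell. They do not say either whether replicates 1 and 2 are separate cultures, so a p-value here covers only array-to-array spread, which may be technical. An unselected subclone was not analysed here, and an effect of the selection cannot be told apart from one of subcloning or passage.

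TGF-beta ligands are made as latent precursors that stay bound to their own propeptide and to latent TGF-beta binding proteins until integrins, proteases or thrombospondin release them. The free dimer joins the type II receptor Tgfbr2 with the type I receptor Tgfbr1, a step that Tgfbr3 (betaglycan) eases, mainly for Tgfb2, and the receptors phosphorylate Smad2 and Smad3, which enter the nucleus with Smad4. Smad7 and Smad6 are induced by TGF-beta and BMP signals and feed back on the receptors. In liver tumours the pathway is known both for arresting growth and for driving epithelial cells towards a mesenchymal, motile state.

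Values are log2 signals, so a difference of 1 is 2-fold. They compare the lines for 1 probe set, and a level of one probe set cannot be set against that of another. A gene with several probe sets is represented by the one with the highest mean over the 6 arrays, and the others are given beside it. M1 replicate 1 stood apart from the other arrays. The arrays of a line correlated at 0.997 in BL185, 0.994 in I1 and 0.911 in M1 over all probe sets, and the typical SD between replicates was 0.10 in BL185, 0.16 in I1 and 0.65 in M1. The SD over the probe sets of M1 replicate 1 was 1.62, against 1.83 to 1.97 on the other arrays, and its signal for small-subunit ribosomal RNA was 12.50 against 10.11 to 11.51. The 3′ minus 5′ signal of Actb was 1.08 and 0.88 in BL185 and 1.24 to 1.47 in the selected lines, and these values stand beside every difference from BL185 given here. Their part in the results was not tested. The array medians lay between 7.87 and 8.11. Probe sets of olfactory receptor genes, genes of the nose taken here as a stand-in for background, had a 95th percentile of 8.38 to 8.72 on 5 arrays and 9.03 on M1 replicate 1, so signals at or below such levels cannot be told from background. The epithelial keratins Krt8 (14.94 to 15.23 over the 6 arrays) and Krt18 (14.78 to 14.96) and the liver transcription factor Hnf4a (11.94 to 13.34) were well above it, whereas albumin, Alb, was at 7.53 to 8.43. Of 11 genes listed as hepatocyte markers 6 exceeded the olfactory receptor level on both BL185 arrays. These were Hnf4a, Ttr and Fgb, and Krt8, Krt18 and Epcam, which are epithelial genes not particular to hepatocytes. The level was also exceeded by 1 of 10 stellate cell and fibroblast markers, 2 of 8 endothelial markers and 4 of 8 macrophage and leukocyte markers. The macrophage marker Cd68 read 10.74 and 10.56 in the parent, 7.51 and 7.37 in M1 and 7.78 and 7.41 in I1, while the pan-leukocyte marker Ptprc had a mean of 6.25 in BL185. Cd68 and Cd53 had lower means in both selected lines than in BL185, and the other 6 of the 8 markers had higher means. The mean level of the 8 was 8.58 and 8.62 in the parent, 8.67 and 7.98 in M1, and 8.38 and 8.26 in I1, and its part in the differences was not tested. In bulk RNA, fewer cells of a type and less RNA per cell cannot be told apart.

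The promoters of 2 members are shown because their genes had the largest mean differences among members with an entry in the RefSeq promoter table of GRCm38.p6, which held 7 of the 10 genes in 8 windows. Each window runs from 250 bases before to 50 bases after the annotated transcription start, on the gene's own strand, here the minus strand for both. Capitals in the Tgfb2 window, chr1:186705940-186706239, mark the E-box CACGTG at -51 to -46 and the letters TATAAA at -31 to -26. Capitals in the Smad6 window, chr9:64022010-64022309, mark the palindrome GTCTAGAC, the Smad binding element, which lies over the start at -4 to 4.
Tgfb2: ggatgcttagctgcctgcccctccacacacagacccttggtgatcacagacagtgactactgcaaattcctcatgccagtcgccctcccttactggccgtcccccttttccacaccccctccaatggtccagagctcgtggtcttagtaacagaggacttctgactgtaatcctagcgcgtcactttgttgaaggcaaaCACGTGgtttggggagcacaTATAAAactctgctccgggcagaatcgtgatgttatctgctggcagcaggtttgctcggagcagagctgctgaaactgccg
Smad6: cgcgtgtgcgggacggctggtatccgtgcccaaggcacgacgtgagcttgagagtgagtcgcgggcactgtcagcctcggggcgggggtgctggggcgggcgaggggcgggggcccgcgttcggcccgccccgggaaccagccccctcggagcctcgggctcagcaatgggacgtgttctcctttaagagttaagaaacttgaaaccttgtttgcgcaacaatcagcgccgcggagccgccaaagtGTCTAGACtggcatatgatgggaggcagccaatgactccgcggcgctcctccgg
The palindrome GTCTAGAC was found in 0.213% of all 32851 windows of this length, and among the 8 windows of the members in that of Smad6 alone. The E-box CACGTG, also searched on both strands, was in 7.15% of all windows, and TATAAA, searched on the gene's strand, in 8.32%. Each was found in 1 of the 8 windows, that of Tgfb2. The shorter Smad motif CAGAC, searched on both strands, was in 49.6% of all windows and in 4 of the 8, those of Tgfb2, Tgfbr2 and Tgfbi and the second start of Tgfbr1. A match is a description of the letters and not evidence of binding.

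The ligand genes Tgfb2 and Tgfb3 had the largest differences of the 10 members in both selected lines, and Tgfb3 rose in M1. Tgfb3 encodes a ligand with roles in palate and lung development and in wound repair. It read 8.51 and 8.40 on the BL185 arrays, 10.13 and 10.67 on the M1 arrays and 10.38 and 10.26 on the I1 arrays. All 4 arrays of the selected lines lay above both arrays of the parent, and the M1 and I1 arrays overlapped. The log2 change was 1.95 ± 0.23 in M1 (SE; 3.86-fold) with an adjusted p of 0.0452, and 1.87 ± 0.23 in I1 (3.65-fold) with an adjusted p of 0.0595 (limma, Benjamini-Hochberg over 18193 genes). Ranked from the largest rise, Tgfb3 stood at 81 of the 18193 genes in M1 and at 101 in I1. The gene's own BL185 signals lay near the olfactory receptor level, so the sizes are not exact. The M1 call did not hold when any BL185 or I1 array was left out (adjusted p from 0.247 to 0.606), or with an intensity trend (0.0598), robust moderation (0.0532), median centring (0.0985) or only the BL185 and M1 arrays (0.247), and without M1 replicate 1 the change was 2.22 ± 0.14 with an adjusted p of 4.66e-08. In I1 the adjusted p without M1 replicate 1 was 2.89e-08.

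Tgfb2, a ligand that depends on betaglycan for high-affinity binding to Tgfbr2, has 4 probe sets. Its brightest read 7.96 and 7.86 in the parent, 9.05 and 9.82 in M1, and 9.25 and 9.27 in I1. The parent was at background, and all 4 arrays of the selected lines were higher, M1 replicate 1 only just above the olfactory receptor level of that array. The change was 1.53 ± 0.29 in M1 (adjusted p = 0.0985) and 1.35 ± 0.29 in I1 (adjusted p = 0.159), with 95% confidence intervals of 0.80 to 2.26 and 0.62 to 2.08 by limma. Neither passed the test over all genes on the 6 arrays, and both did without M1 replicate 1 (1.92 ± 0.14 in M1, adjusted p = 1.5e-07, and 1.35 ± 0.11 in I1, adjusted p = 4.57e-07). They also passed after cyclic loess (0.0143 in M1 and 0.024 in I1) and quantile normalization (0.0133 and 0.0208).

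The other probe sets of Tgfb2 were higher on every M1 and I1 array than on either BL185 array as well. Probe set 1450922_a_at read 7.55 and 7.44 in the parent, 8.38 and 9.86 in M1, and 8.90 and 8.79 in I1. Probe set 1450923_at read 7.81 and 7.60, 8.40 and 9.93, and 9.45 and 9.25 in the same order. These 2 and the brightest were designed from the same sequence record, so they are not independent of each other. Probe set 1438303_at, from another record, stayed below the array medians throughout at 6.71 to 7.58, with a difference of 0.49 in M1 and 0.37 in I1. On M1 replicate 1 all 3 of these probe sets lay below the olfactory receptor level of that array.

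Tgfb1, the most studied ligand of the family, read 10.44 and 10.37 in the parent, 10.16 and 10.81 in M1, and 10.87 and 10.59 in I1. The M1 arrays lay on either side of those of the parent, whereas both I1 arrays lay above them. The difference was 0.08 ± 0.27 in M1 (adjusted p = 0.852) and 0.32 ± 0.27 in I1 (adjusted p = 0.699), with 95% confidence intervals of -0.60 to 0.77 and -0.36 to 1.01 by limma. These intervals still hold changes of up to about 2-fold. By limma the I1 difference was called with array weights (adjusted p = 0.0368) and with only the BL185 and I1 arrays (0.0441). Those settings called 8551 and 8481 of all 18193 genes in I1. With its probe sets averaged the I1 difference was 0.24. Its dimmer probe set, 1445360_at, read 7.79 to 8.30 on all arrays, at background.

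**Figure D1:**
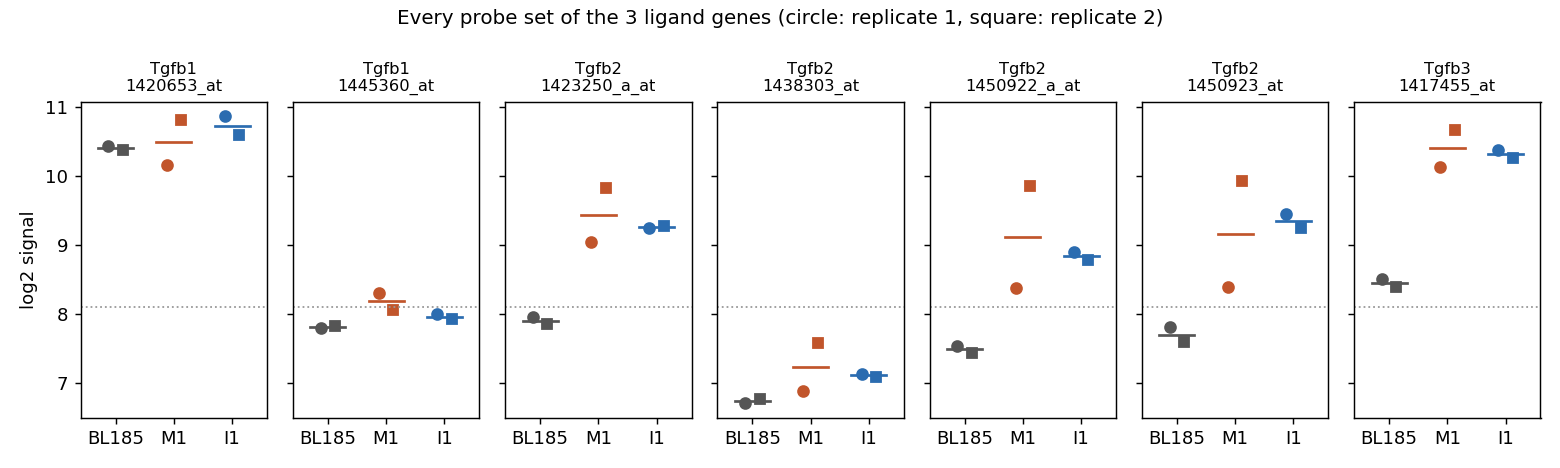
Log2 signal of each of the 7 probe sets of Tgfb1, Tgfb2 and Tgfb3 on each array, with circles for replicate 1, squares for replicate 2, bars for the mean of a line and a dotted line at the highest array median (8.11). The 4 probe sets of Tgfb2 and that of Tgfb3 were higher on every M1 and I1 array than on both BL185 arrays, and the brighter Tgfb1 probe set overlapped between BL185 and M1.

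Over the 10 members, 1 was called in M1 against BL185, Tgfb3, beside 0.879% of all genes called in this comparison, 0.275% higher and 0.605% lower. In I1 0 of 10 were called by limma, beside 0.511% of all genes, 0.192% higher and 0.319% lower, and 3 of 10 had an unadjusted p under 0.05, all with a higher mean, beside 11.6% of all genes in either direction and 4.18% with a higher mean. In M1 2 of 10 had an unadjusted p under 0.05, both with a higher mean, beside 15.4% of all genes in either direction and 3.92% with a higher mean. The M1 arrays lay above both BL185 arrays for 5 of 10 members and 26.2% of all genes, and below them for 0 of 10 and 25.7%. The I1 arrays lay above for 9 of 10 and 42.6%, and below for 1 of 10, Tgfbr1, and 33.5%. The 9 include Smad7, where the lower I1 array (11.6253) barely exceeded the higher BL185 array (11.6236), and Tgfbr3, whose signals were at background. The median change of the members was 0.23 in M1 and 0.48 in I1, and that of all genes was 0.07 and 0.06. Without M1 replicate 1, 6 of 10 members were called higher in M1 and 0 lower (24% of all genes called, 11.7% higher and 12.3% lower) and 7 of 10 in I1 and 0 lower (46.6% called, 22.5% higher and 24.1% lower). M1 is then 1 array that is assumed to vary like the other lines, and the M1 count depends on which array is kept. Without M1 replicate 2 the M1 changes of Tgfb1 (-0.24), Tgfbr1 (-0.81), Smad3 (-0.23) and Smad7 (-0.74) were negative. Those of the other members were then positive, with Tgfbr2 at 0.02. Both comparisons share the BL185 arrays.

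**Figure D2:**
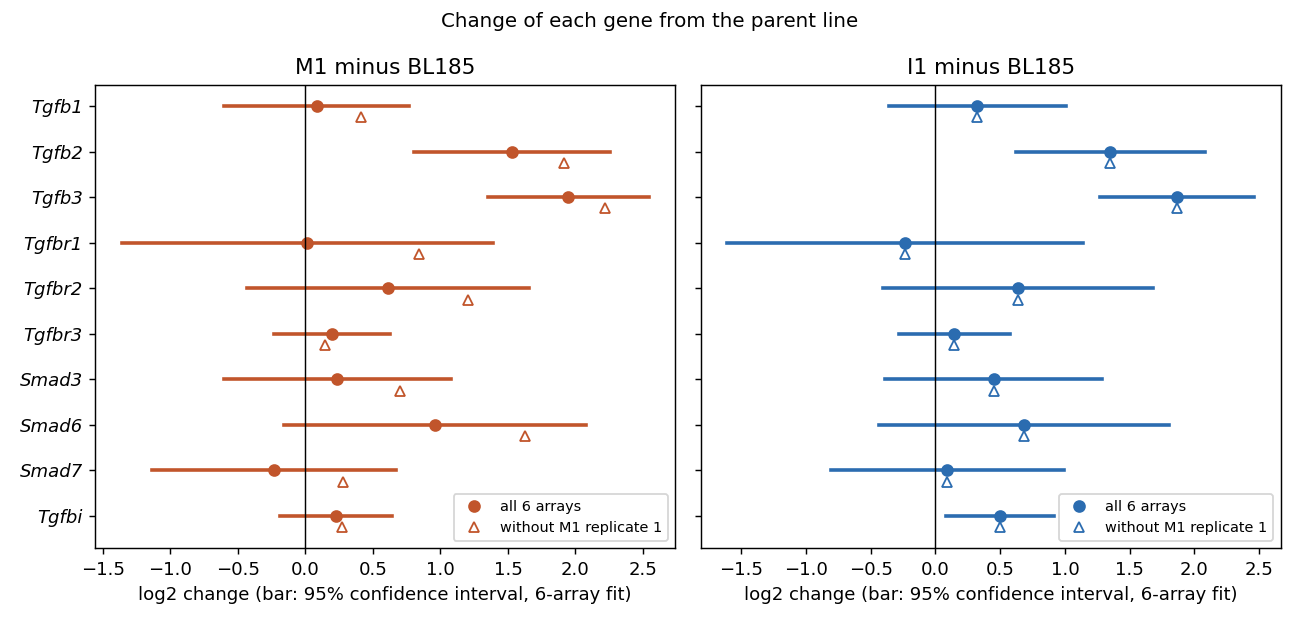
Log2 change of each of the 10 genes from BL185 in M1 and in I1, with filled circles and bars for the estimate and 95% confidence interval of the fit to all 6 arrays and open triangles for the estimate without M1 replicate 1. The intervals of Tgfb2 and Tgfb3 lay above 0 in both lines and that of Tgfbi in I1, and the M1 estimates of Tgfbr1, Tgfbr2, Smad6 and Smad7 moved the most when M1 replicate 1 was left out.

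Of the 3 receptors none was called in either line on the 6 arrays as deposited, and for Tgfbr1 and Tgfbr2 the M1 arrays lay more than 1 log2 unit apart. Tgfbr2, the ligand-binding receptor kinase that starts the signal, read 11.39 and 11.32 in the parent, 11.37 and 12.55 in M1, and 11.81 and 12.17 in I1. Both I1 arrays and M1 replicate 2 lay above the parent, while M1 replicate 1 lay among its arrays. The difference was 0.61 ± 0.41 in M1 (adjusted p = 0.452) and 0.64 ± 0.41 in I1 (0.647) by limma, and without M1 replicate 1 it was 1.20 ± 0.16 (5.76e-05) and 0.64 ± 0.13 (0.00122). After cyclic loess both were called, at 1.02 (adjusted p = 0.0208) and 0.81 (0.0407), as was M1 after quantile normalization (0.0382). I1 was also called with array weights (0.0015), a setting that called 8551 of all 18193 genes in I1. With its probe sets averaged the difference was smaller, 0.30 in M1 and 0.25 in I1. Without M1 replicate 2 the M1 difference was 0.02. Its dimmer probe sets read 8.28 to 8.73 and 6.32 to 6.46. On the first of these the difference was 0.23 in M1 and 0.11 in I1, where the arrays overlapped those of the parent.

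Tgfbr1, the type I receptor kinase that phosphorylates the Smads, read 10.51 and 10.44 in the parent, 9.66 and 11.31 in M1, and 10.08 and 10.40 in I1. The M1 arrays differed from each other by 1.65 and lay on opposite sides of the parent. Both I1 arrays lay just below it. The difference was 0.01 ± 0.54 in M1 (adjusted p = 0.989) and -0.23 ± 0.54 in I1 (0.865) by limma, and in M1 it was 0.84 without replicate 1 and -0.81 without replicate 2, so its direction there is set by which array is used. The I1 difference was 0.052 after quantile normalization. The other 2 probe sets of Tgfbr1 read 6.40 to 7.41, below the array medians.

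Tgfbr3, the co-receptor betaglycan, read 7.80 and 7.97 in the parent, 8.14 and 8.03 in M1, and 8.03 and 8.04 in I1. These are background signals, and the differences of 0.20 ± 0.17 in M1 (adjusted p = 0.503) and 0.15 ± 0.17 in I1 (0.758) by limma carry no level of the gene. Its other probe set read 7.45 to 7.91 on 5 arrays and 9.07 on M1 replicate 1, close to the olfactory receptor level of that array.

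**Figure D3:**
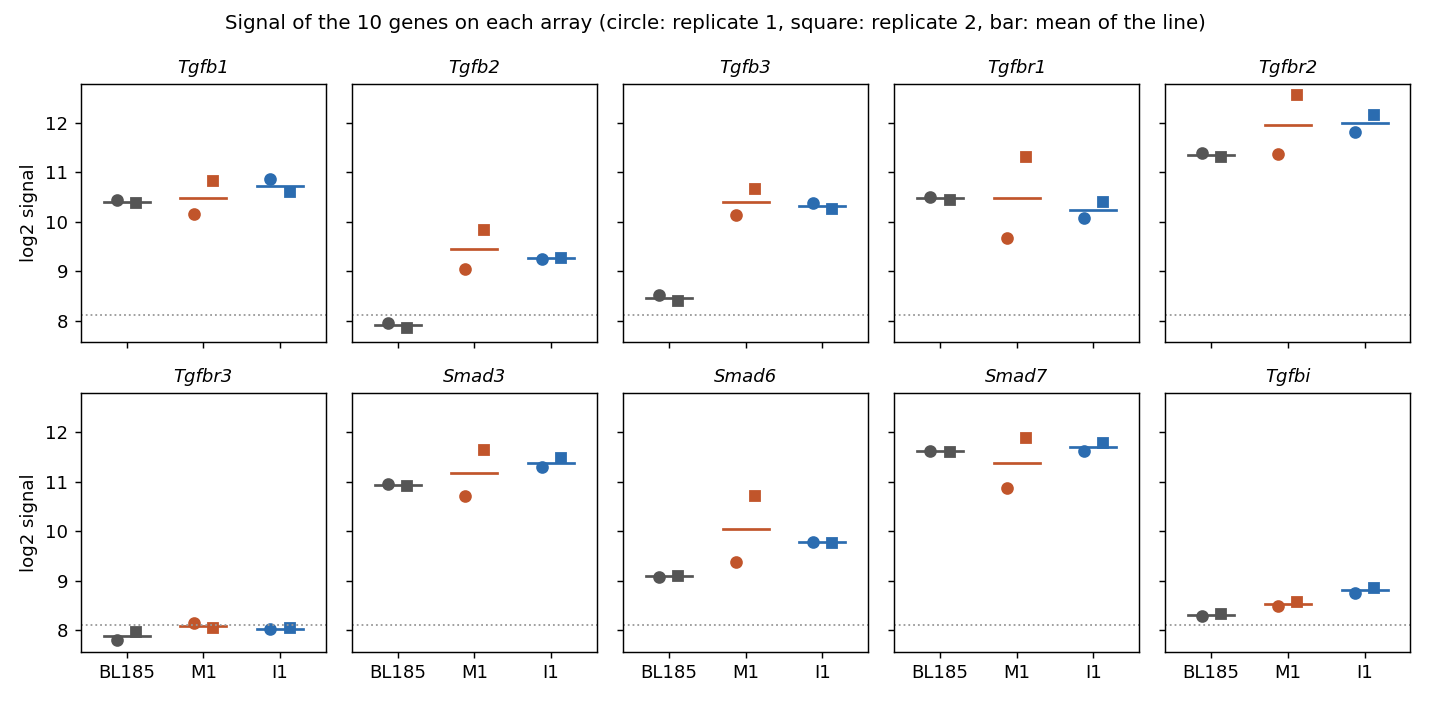
Log2 signal of each of the 10 genes on each array, on its brightest probe set, with circles for replicate 1, squares for replicate 2, bars for the mean of a line and a dotted line at the highest array median (8.11). M1 replicate 2 was above M1 replicate 1 for 9 of the 10 genes, and heights of different genes cannot be compared.

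None of the 3 Smads was called on the 6 arrays as deposited. Smad3, which carries the TGF-beta signal to DNA, read 10.96 and 10.92 in the parent, 10.71 and 11.64 in M1, and 11.30 and 11.47 in I1. The I1 arrays were higher than the parent, and the M1 arrays lay on either side of it. The difference was 0.24 ± 0.33 in M1 (adjusted p = 0.665) and 0.45 ± 0.33 in I1 (0.678) by limma, and 0.70 ± 0.14 (0.00199) and 0.45 ± 0.12 (0.00593) without M1 replicate 1. Both were called on 6 arrays after cyclic loess (0.69 and 0.65, adjusted p = 0.0222 and 0.0285) and quantile normalization (0.0310 and 0.0367), and that of I1 with array weights (0.00599). Its dimmer probe sets read 7.51 to 8.83.

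Smad6, which mainly restrains BMP receptors and whose promoter window holds the palindrome shown above, read 9.08 and 9.10 in the parent, 9.38 and 10.72 in M1, and 9.79 and 9.76 in I1. All 4 arrays of the selected lines were above the parent, with a gap of 1.34 between the M1 arrays. The difference was 0.96 ± 0.44 in M1 (adjusted p = 0.38) and 0.68 ± 0.44 in I1 (0.647) by limma. Without M1 replicate 1 it was 1.63 in M1 and 0.68 in I1, and without M1 replicate 2 it was 0.29 in M1. On 6 arrays M1 was called after cyclic loess (1.30, adjusted p = 0.0321) and I1 with array weights (0.000392).

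Smad7, which blocks Tgfbr1 and recruits ubiquitin ligases to it, read 11.62 and 11.60 in the parent, 10.87 and 11.89 in M1, and 11.63 and 11.78 in I1. The lines were close to each other apart from M1 replicate 1, which was the lowest. The difference was -0.23 ± 0.36 in M1 (adjusted p = 0.695) and 0.09 ± 0.36 in I1 (0.923) by limma, and in M1 it was 0.28 ± 0.14 (0.195) without replicate 1, 0.20 after cyclic loess and 0.21 after quantile normalization. The other probe set read 9.02 on M1 replicate 1 and 9.51 to 9.97 on the other arrays.

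Tgfbi, a secreted matrix protein named for its induction by TGF-beta, has 4 probe sets. The one with the highest mean read 8.28 and 8.32 in the parent, 8.49 and 8.58 in M1, and 8.75 and 8.86 in I1. The 3 lines did not overlap and stood in the order BL185, M1, I1. The BL185 signals lay below the olfactory receptor level of their arrays, and the I1 signals just above it (8.52 and 8.72). M1 replicate 1 also lay below the level of its array (9.03), and M1 replicate 2 just above its own (8.48). The step from BL185 to M1 therefore cannot be told from background. The difference was 0.23 ± 0.16 in M1 (adjusted p = 0.464) and 0.50 ± 0.16 in I1 (0.335, and 0.00241 without M1 replicate 1) by limma. Probe set 1448123_s_at read 8.16 and 8.05 in the parent, 7.71 and 8.40 in M1, and 8.87 and 9.01 in I1, with a difference of 0.83 in I1 and -0.05 in M1. Probe set 1456250_x_at read 7.84 and 7.56, 7.76 and 7.95, and 8.55 and 8.58, a difference of 0.87 in I1 and 0.15 in M1. On both of these probe sets every BL185 and M1 array lay below its olfactory receptor level, as did I1 replicate 2 on 1456250_x_at. The last probe set, 1415871_at, read 6.93 to 7.10 on all arrays, and so did not show the I1 difference of the other probe sets.

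The selected lines were also set against each other. By limma 0 of 10 members were called in I1 against M1 and 0 had an unadjusted p under 0.05, beside 0% of all genes called and 2.25% with such a p. The arrays of the selected lines did not overlap for 1 of 10 members, Tgfbi, with I1 higher, beside 8.13% of all genes with I1 higher and 7.96% with I1 lower. On the brightest probe sets the differences ran from -0.28 ± 0.44 for Smad6 to 0.32 ± 0.36 for Smad7. Tgfbi differed more on 1448123_s_at (0.88) and 1456250_x_at (0.71), with the I1 arrays above those of M1. The M1 signals of these probe sets lay below the olfactory receptor level, so the sizes are not exact. By limma on every probe set the unadjusted p-values of these 2 were 0.0194 and 0.00847, and 0 of 25 member probe sets were called. The dimmest Tgfbi probe set, 1415871_at, had a difference of -0.01. For Tgfb3 the difference was -0.08 with a 95% confidence interval of -0.68 to 0.51, and for Tgfb2 -0.18 with an interval of -0.91 to 0.55. Without M1 replicate 1, 4 of 10 members were called lower in I1 than in M1 and 0 higher (20.6% of all genes called, 13.4% lower and 7.2% higher), Tgfbr1 (-1.07), Smad6 (-0.94), Tgfbr2 (-0.57) and Tgfb2 (-0.56). Without M1 replicate 2, 6 were called (57% of all genes called, 36.1% higher), and the differences of Tgfbr1 (0.58), Smad6 (0.39) and Tgfbr2 (0.62) were positive. Which of the selected lines had more of these transcripts is therefore set by the M1 array used.

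On the array signals alone, the profile of Tgfb3 was closest to those of Pimreg, a mitotic regulator, Bicc1, an RNA-binding protein, and Kif22, a spindle kinesin. The measure was the root mean square difference between deviations from each gene's own BL185 mean over the 6 arrays, among 10335 genes that reached a signal of 9, and it was 0.08, 0.11 and 0.13. Pimreg differed from BL185 by 2.06 in M1 and 1.83 in I1, Bicc1 by 1.91 and 1.80, and Kif22 by 1.78 and 1.85. This likeness describes 6 arrays of 3 lines and carries no test.

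The rest of the pathway was counted by role. Of 28 measured TGF-beta target genes, Timp1 was called, in both lines, with 1 of 28 higher and 0 lower in M1 and the same in I1. Timp1, an inhibitor of metalloproteinases, rose from 10.17 and 10.09 in BL185 to 11.69 and 12.23 in M1 and 12.19 and 12.22 in I1. Its log2 change was 1.83 ± 0.23 in M1 (adjusted p = 0.0469) and 2.07 ± 0.23 in I1 (0.0461) by limma. Neither call held when any BL185 or I1 array was left out (adjusted p from 0.259 to 0.763), with an intensity trend (0.0684 and 0.0672), robust moderation (0.057 and 0.0558) or median centring (0.106 in both), and that of M1 did not hold with every probe set (0.0506) or with only the BL185 and M1 arrays (0.259). The median of the list was 0.22 in M1 and 0.26 in I1, and 19 of 28 differences were positive in each, beside 55.5% and 56.6% of all genes. With M1 replicate 1 left out, 8 of the 28 were called higher and 5 lower in M1 (11.7% and 12.3% of all genes), and 14 higher and 5 lower in I1 (22.5% and 24.1%).

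Among the targets that did not pass, the Id genes, which encode inhibitors of basic helix-loop-helix factors and are known mainly as BMP targets, were picked out after their values were seen. Id3 read 9.92 and 9.62 in the parent, 11.53 and 12.28 in M1, and 11.89 and 11.89 in I1. Id2 read 11.19 and 11.13, 12.56 and 13.09, and 12.81 and 12.86 in the same order. Id1 read 11.16 and 10.91, 12.25 and 12.69, and 12.51 and 12.64. For all 3 genes every array of the selected lines lay above the parent. The differences were 2.14 for Id3, 1.66 for Id2 and 1.44 for Id1 in M1, with adjusted p-values of 0.0571, 0.0565 and 0.0717, and 2.12, 1.67 and 1.54 in I1, with 0.0743, 0.0721 and 0.0824 (limma). After cyclic loess all 3 were called in both lines (adjusted p from 0.00246 to 0.0111), as after quantile normalization (0.00393 to 0.0115). After median centring none was (0.119 to 0.18). With its probe sets averaged the Id2 difference was 1.22 in M1 and 0.98 in I1. Ccn2, a matricellular target shared with the YAP pathway and likewise picked out afterwards, read 14.17 and 14.19 in the parent, 13.17 and 13.80 in M1, and 14.13 and 14.35 in I1, with a difference of -0.69 (adjusted p = 0.311) and 0.06 (0.935).

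Of 13 negative regulators 0 were called in either line by limma. At an unadjusted p under 0.05, 6 had a lower mean in M1 and 2 in I1, beside 11.5% and 7.47% of all genes. The smallest p-values belonged to Smurf1, a ubiquitin ligase for Smads and receptors, and Tgif1, a repressor that binds Smads. Smurf1 read 10.75 and 10.64 in the parent, 9.43 and 9.81 in M1, and 9.32 and 9.38 in I1, with a difference of -1.08 ± 0.20 (adjusted p = 0.0972) and -1.34 ± 0.20 (0.0849). Tgif1 read 11.95 and 11.89, 9.67 and 10.61, and 10.16 and 10.30, a difference of -1.78 ± 0.34 (0.0987) and -1.69 ± 0.34 (0.144). In both genes every array of the selected lines lay below the parent. The median of the list was -0.84 in M1 and -0.45 in I1. On the other 5 arrays, without M1 replicate 1, 2 were called higher and 6 lower in M1 (11.7% and 12.3% of all genes), and 1 higher and 7 lower in I1 (22.5% and 24.1%). The median was then -0.29 in M1, and on 6 arrays it stayed negative after cyclic loess (-0.41 and -0.32), quantile normalization (-0.51 and -0.25) and median centring (-0.97 and -0.50).

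Of 16 other receptors and Smads of the family 0 were called in either line by limma, with 5 lower in M1 and 1 lower in I1 at an unadjusted p under 0.05, beside 11.5% and 7.47% of all genes. The type I receptors Acvr1 and Acvr1b had the smallest p-values in M1. Acvr1, which serves BMP and activin ligands, read 11.77 and 11.69 in the parent, 8.80 and 10.74 in M1, and 10.24 and 10.49 in I1, and its difference was -1.96 ± 0.62 in M1 (adjusted p = 0.253) and -1.37 ± 0.62 in I1 (0.502). For Acvr1 the M1 difference was -0.998 without M1 replicate 1 (adjusted p = 0.000163) and -2.93 without M1 replicate 2 (2.61e-09), and with its probe sets averaged -0.86 in both lines. Acvr1b, an activin receptor, had a difference of -0.59 ± 0.19 (0.258) and -0.50 ± 0.19 (0.413). With its probe sets averaged the Acvr1b difference was only -0.098 in M1 and -0.19 in I1. It was -0.15 and -0.28 after cyclic loess, and -0.13 and -0.20 after quantile normalization. Smad4, the partner of all receptor-activated Smads, was picked out after its values were seen and had a mean of 13.05 in BL185, 12.16 in M1 (adjusted p = 0.315) and 12.43 in I1 (0.591). The median of the list was -0.70 in M1, -0.23 in M1 without replicate 1 and -0.47 in I1, and it was negative after cyclic loess, quantile normalization and median centring. With that array left out, 0 were called higher and 4 lower in M1 (11.7% and 12.3% of all genes), and 4 higher and 10 lower in I1 (22.5% and 24.1%).

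Of 12 genes of latency and activation 0 were called in either line by limma, with 2 higher at an unadjusted p under 0.05 in each, beside 3.92% of all genes in M1 and 4.18% in I1. Itgb6, the beta subunit of an integrin that releases latent TGF-beta, read 7.90 and 7.97 in the parent, 8.62 and 8.95 in M1, and 8.95 and 8.66 in I1 (0.85 ± 0.21, adjusted p = 0.169, and 0.87 ± 0.21, 0.2). Mmp14, a membrane-bound metalloproteinase that can free latent TGF-beta, had a difference of 0.25 ± 0.17 in M1 (adjusted p = 0.457) and 0.70 ± 0.17 in I1 (0.204). With its probe sets averaged the Mmp14 difference was -0.17 in M1 and 0.27 in I1. The thrombospondin Thbs1, another activator, picked out after its values were seen, read 7.47 and 7.58 in the parent, 8.38 and 9.55 in M1, and 8.35 and 8.64 in I1 (1.44 ± 0.41, adjusted p = 0.215, and 0.97 ± 0.41, 0.457). Both Itgb6 and Thbs1 lay below the olfactory receptor level in the parent. On the selected lines Itgb6 exceeded that level of its array on M1 replicate 2 and I1 replicate 1, and Thbs1 on M1 replicate 2 alone, so the other signals cannot be told from background. The median of the list was -0.10 in M1, where it was 0.17 without replicate 1, 0.06 after cyclic loess and 0.15 after quantile normalization, and 0.24 in I1. With M1 replicate 1 left out, 3 were called higher and 1 lower in M1 (11.7% and 12.3% of all genes), and 4 higher and 0 lower in I1 (22.5% and 24.1%).

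**Figure D4:**
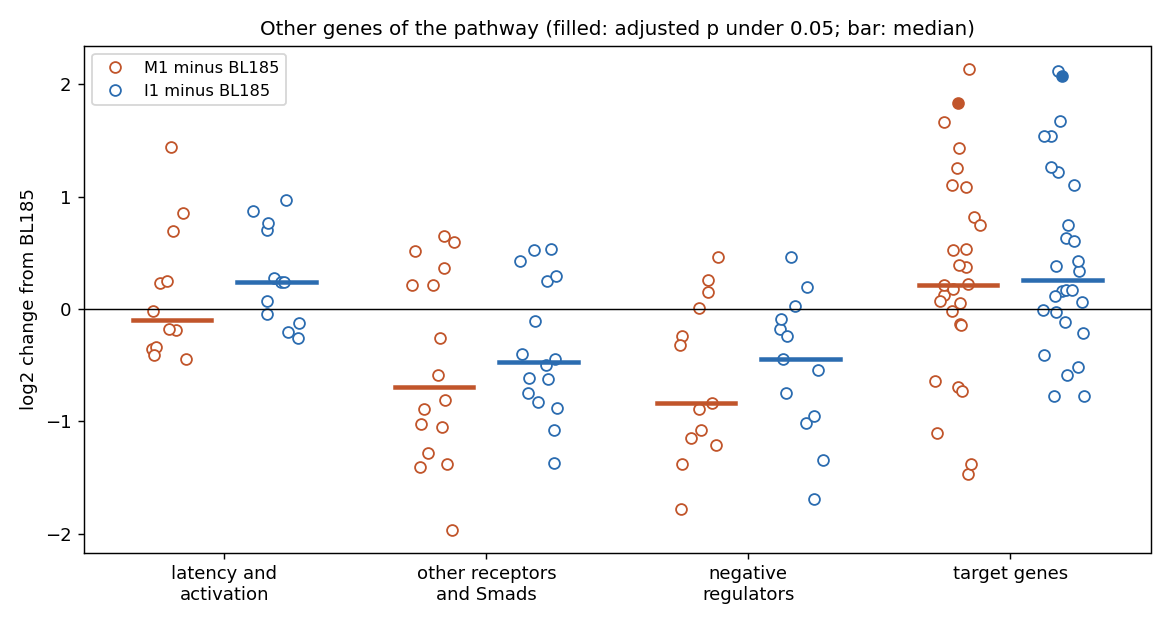
Log2 change from BL185 of the genes in 4 other lists of the pathway in M1 and I1, with 1 point for each gene, filled where the adjusted p was under 0.05, and a bar at the median of each list. Timp1 is the filled point in each line, and the medians of the other receptors and Smads and of the negative regulators lay below 0 in both.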

How the data were processed

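RNA of BL185, M1 and I1 was measured on 6 mouse arrays, 2 for each line. The deposited file holds the authors' log2 signals for each probe set, which RMA and the affy package gave per the submitters' processing notes. Their versions, settings and chip definition were not given in sources used here, and the log2 scale was read from the values, which run from 5.80 to 15.43. Dim genes have no detection call, and the number of arrays limits precision. There were 0 unused columns of sample values.

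Of 45101 probe sets, 34945 named 1 gene, 932 several, 64 were controls and 9160 others had no gene. Symbols were matched by Entrez identifier to RefSeq genes of GRCm38.p6 (34741 probe sets, 0 renamed). The brightest probe set of each gene was fitted on all 6 arrays, with 1 mean for each line, in limma 3.58.1 (R 4.3.3) (3 residual and 2.27 prior degrees of freedom). A gene was called at a Benjamini-Hochberg adjusted p under 0.05 over 18193 genes within a comparison. Errors of changes are SEs of this fit, and a second fit took every probe set. The fit was run on simulated data to check that it returned the sizes of added changes. Every gene of a line had the same simulated spread, so the calls were not tested where spread differs between genes.

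The members and lists were chosen with earlier results of these data known. Named were all members, up to 6 called genes of each pathway list or the 2 with the smallest p where none was called, and the 3 genes nearest in profile to each called member. Id1, Id2, Id3, Ccn2, Smad4, Thbs1, Lox, Cdkn1a and Cdkn2b, and the motifs CACGTG and TATAAA, were added after their values or positions were seen. Some genes of the lists were not analysed here. Alternatives were other summaries of probe sets, a filter on dim genes, other scalings, 50 added to the linear value, other moderation, array weights, only the lines compared, replicate number as a block, and each array left out. Numbers of replicates were swapped in BL185 as a further block after the data were seen. Figures were drawn with matplotlib 3.10.9.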

Additional observations from a re-analysis of the deposited data

How the results depend on the processing

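The numbers of calls changed widely with the setting and with the arrays used, and the cause was not tested. Genes called in M1 (160, of which 31.2% were higher) numbered 338 with probe sets averaged within a gene, 243 with every probe set, 1831 after cyclic loess (46.3% higher), 1176 after quantile normalization (53.8%), 57 after median centring (8.77%), which shifted the median of all genes by -0.13, 312 with array weights and 0 with only the lines compared. In I1 (93, 37.6% higher) the same settings gave 172 with every probe set, 1544 (49.5%), 981 (62%), 23 (8.7%), 8551 with array weights and 8481 with only the lines compared. Between I1 and M1 (0) they gave 51 after cyclic loess, 6 after quantile normalization, 2 with array weights and 1 with genes of a mean of at least 8. Leaving out each array in turn gave 0 to 12879, 0 to 8481 and 0 to 10365.

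Members called in M1 (1) numbered 5 after cyclic loess, 4 after quantile normalization and 0 after median centring, with a trend, with robust moderation and with only the lines compared. Over all 18193 genes the 3 scalings gave 1831, 1176 and 57 in M1, the trend 158 and robust moderation 124. In I1 (0) members called numbered 1 with the mean of probe sets, 4 after cyclic loess and 3 after quantile normalization. With array weights or only the lines compared they numbered 7. Over all genes these settings gave 112, 1544, 981, 8551 and 8481 in I1. Member probe sets called in M1 (1 of 25, beside 0.695% of all 34945) numbered 5, 4 and 0 under the same 3 scalings. They numbered 0 in M1 with 50 added, trend, robust moderation or only the lines compared. In I1 (0 of 25, beside 0.492%) they numbered 4 and 3 after cyclic loess and quantile normalization. With array weights they numbered 12 of 25 in I1, and 11 with only the lines compared, where 8551 and 8481 of all 18193 genes were called. The share of all probe sets called was not counted under these alternatives or with an array left out. Those probe set counts therefore show nothing particular to the members. Leaving out each array gave 0 to 6, 0 to 7 and 0 to 6 members in M1, I1 and between them, and 0 to 12, 0 to 11 and 0 to 13 probe sets. In each, the highest number came without an M1 array and 0 without any BL185 or I1 array.

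The directions of Tgfb2, Tgfb3, Tgfbr2, Smad6 and Tgfbi against BL185 held under every setting run, with Tgfbr2 in M1 only at 0.02 without M1 replicate 2. Where no array was left out, the differences that changed sign were small. In M1 they were Tgfb1 (-0.042) and Tgfbr1 (-0.11) after median centring, Tgfbr3 (-0.0045) and Smad7 (0.20) after cyclic loess and Smad7 (0.21) after quantile normalization, and in I1 Tgfbr1 (0.052) after quantile normalization. Between I1 and M1 they were Tgfbr2 with the mean of probe sets (-0.042), cyclic loess (-0.21) and quantile normalization (-0.19), Smad3 with the same (-0.032, -0.032 and -0.0063), and Tgfbr3 with cyclic loess (0.040), quantile normalization (0.023) and median centring (0.020). Leaving out each array moved the M1 change of Tgfb1 from -0.24 to 0.41, Tgfbr1 from -0.81 to 0.84, Smad3 from -0.23 to 0.70 and Smad7 from -0.74 to 0.28. It moved the difference of I1 from M1 from -0.085 to 0.57 for Tgfb1, -0.56 to 0.21 for Tgfb2, -0.35 to 0.19 for Tgfb3, -1.07 to 0.58 for Tgfbr1, -0.57 to 0.62 for Tgfbr2, -0.25 to 0.68 for Smad3, -0.94 to 0.39 for Smad6 and -0.19 to 0.83 for Smad7. Of the other named genes, Mmp14 in M1 was -0.17 with the mean of probe sets, and leaving out each array moved Ccn2 in I1 from -0.053 to 0.17. The cause was not tested.

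The replicate numbers did not pair the arrays: deviations of same-numbered arrays correlated at -0.13 for BL185 and M1, 0.16 for BL185 and I1 and 0.37 for M1 and I1. With the replicate number as a block, 38 genes were called in M1, 1 in I1 and 0 between them, with 0 members and 0 member probe sets in each. With the BL185 numbers swapped, these were 76, 0 and 0, again with 0 members and 0 member probe sets. The calls of Tgfb3 in M1 (adjusted p = 0.095 with the block and 0.0697 with it swapped) and of Timp1 in M1 (0.0965 and 0.0697) and I1 (0.0998 and 0.0826) were lost under both.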

Other observations

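Among the target genes, Lox, Cdkn1a and Cdkn2b were picked out after their values were seen, and none passed the test of I1 against M1 on 6 arrays. Lox, a collagen cross-linking enzyme, read 7.72 and 7.88 in the parent, 7.86 and 8.18 in M1, and 9.08 and 9.61 in I1, so the I1 arrays lay above all others, while the BL185 and M1 arrays lay below the olfactory receptor level and the size of the difference is not exact. Cdkn1a, the cell cycle inhibitor p21, had a mean of 12.51 in BL185, 11.04 in M1 and 12.39 in I1. Cdkn2b, the inhibitor p15 that TGF-beta induces in epithelial cells, had means of 13.05, 11.94 and 12.84. The limma difference of I1 from M1 was 1.33 for Lox (0.49 with its probe sets averaged, adjusted p = 1), 1.35 for Cdkn1a and 0.90 for Cdkn2b, with adjusted p-values of 0.776, 1 and 1. Without M1 replicate 1 the differences were 1.17 (adjusted p = 0.000962), 0.79 (0.00156) and 0.54 (0.0215).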
